A study of Rattus norvegicus with 5 samples.

Results

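Annexins and S100 proteins, 2 families of small calcium-binding proteins, were followed in cultured hypothalamic cells of the rat embryo. The 9 genes taken were *Anxa1*, *Anxa2*, *Anxa3*, *Anxa4*, *Anxa5*, *S100a4*, *S100a6*, *S100a9* and *S100a10*, and every probe set annotated with one of these symbols and no other was used. Of the 9 genes, 8 had a probe set, out of 4736 genes so measured, and *S100a6* (calcyclin) had none in the annotation used. The 8 genes were read by 11 probe sets, 8 of them for the 5 annexins. *Anxa1*, *Anxa3* and *Anxa5* had 2 probe sets each, called set A (the higher mean signal over the 5 arrays, used for the gene) and set B.

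The cell populations had been taken from Wistar rat hypothalamus cultured at embryonic day 17. GFP+ cells carried a vector with GFP under the minimal *Trh* promoter and were sorted for fluorescence 48 h after transfection. GFP+/- cells came from cultures transfected with the same vector and passed the sorter without selection, so that they held cells with and without GFP. NT cells were not transfected. RNA of GFP+ cells was pooled from 6 experiments, and RNA of GFP+/- and of NT cells from 3 experiments each. GFP+ RNA and GFP+/- RNA were each read on 2 Affymetrix rat genome arrays and NT RNA on 1. The arrays of one population are called biological replicates in the labels and aliquots of the pooled RNA in the methods, so that the p-values measure only the spread between these arrays, which may be technical.

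Annexins are cytosolic proteins that bind acidic phospholipids of membranes when calcium is raised, and take part in membrane traffic, repair and the link between membrane and actin. S100 proteins are EF-hand proteins that work mostly as dimers, and several of them bind annexins: S100a10 (p11) joins annexin A2 in a heterotetramer at the plasma membrane. In the brain, both families are known mainly from glial, meningeal, vascular and immune cells, while S100a10 and annexin A2 are also found in some neurons.

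The values were MAS 5.0 signals, a linear brightness of each probe set. Apart from sums over marker lists, in which the brightest sets weigh most, levels of different probe sets were not set against each other. The 2 GFP+ arrays were more than 2-fold apart in 15.5% of 8740 probe sets and the 2 GFP+/- arrays in 13.2%. Among the 11 member probe sets this was the case for 0 on the GFP+ arrays and for 1, *S100a9*, on the GFP+/- arrays. The ratio of 3′ to 5′ signal of *Gapdh*, a sign of RNA and target quality, was 14.6 and 17.6 on the GFP+ arrays, 12.7 and 14.2 on the GFP+/- arrays, and 5.45 on the NT array. The NT array thus stood apart from the other 4 in this ratio, and the part of this in the comparisons with NT cells was not tested. *Trh*, which marks the sorted cells, had signals of 115 and 141 in GFP+ cells, 109 and 106 in GFP+/- cells and 96.6 in NT cells, and the 0.24 log2 units between GFP+ and GFP+/- arrays did not pass (adjusted p = 0.761). *Mapt*, a neuronal microtubule protein, was bright on all 5 arrays, between 7321 and 12752.

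Promoter sequences are shown for the 4 members that were bright on the arrays and are in the RefSeq promoter table (assembly GRCr8), so that the start regions of genes with alike signals can be compared. That table holds 8 of the 9 genes. Each line runs 5′ to 3′ over 250 bases before and 50 after the annotated start, and capitals mark matches to a TATA box with the letters TATAAA, a GC box with the letters GGGCGG or an AP-1 site with the letters TGANTCA, each searched on both strands and none overlapping another. *Anxa1* lies at chr1:227303683-227303982 (minus strand), *Anxa2* at chr8:78986002-78986301 (plus strand), *Anxa5* at chr2:121272647-121272946 (minus strand) and *S100a4* at chr2:178388279-178388578 (plus strand).
Anxa1: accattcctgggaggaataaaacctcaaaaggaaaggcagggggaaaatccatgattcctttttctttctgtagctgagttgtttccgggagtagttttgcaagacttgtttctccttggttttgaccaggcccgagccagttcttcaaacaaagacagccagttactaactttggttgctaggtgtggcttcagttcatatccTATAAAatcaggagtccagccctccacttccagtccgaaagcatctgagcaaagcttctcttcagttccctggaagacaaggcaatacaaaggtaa
Anxa2: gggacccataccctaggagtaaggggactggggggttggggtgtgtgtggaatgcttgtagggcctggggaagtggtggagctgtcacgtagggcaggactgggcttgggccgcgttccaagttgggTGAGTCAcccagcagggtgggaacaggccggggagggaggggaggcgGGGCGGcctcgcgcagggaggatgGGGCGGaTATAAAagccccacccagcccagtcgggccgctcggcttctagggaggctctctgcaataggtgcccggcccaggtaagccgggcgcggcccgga
Anxa5: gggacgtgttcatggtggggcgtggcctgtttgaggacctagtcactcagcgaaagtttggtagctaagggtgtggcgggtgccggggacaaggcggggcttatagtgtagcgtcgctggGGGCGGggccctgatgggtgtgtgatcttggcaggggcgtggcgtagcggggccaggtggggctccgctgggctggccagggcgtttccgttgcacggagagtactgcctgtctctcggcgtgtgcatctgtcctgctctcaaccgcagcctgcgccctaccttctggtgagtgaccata
S100a4: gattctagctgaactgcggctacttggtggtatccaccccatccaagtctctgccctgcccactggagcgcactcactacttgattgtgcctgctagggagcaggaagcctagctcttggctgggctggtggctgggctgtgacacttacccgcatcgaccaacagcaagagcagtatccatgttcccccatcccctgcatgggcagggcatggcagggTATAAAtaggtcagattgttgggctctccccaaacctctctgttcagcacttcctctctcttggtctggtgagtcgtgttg

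A TATA box began 46 bases before the start in *Anxa1*, 45 in *Anxa2* and 31 in *S100a4*, and the *Anxa5* window held none. *Anxa2* also held GC boxes 76 and 52 bases before its start and an AP-1 site 123 bases before it, and *Anxa5* held 1 GC box at 130 bases. Over all 33469 promoters of the table, 14.2% held the TATA box letters, 33.1% the GC box letters and 7.33% the AP-1 letters. The GC content was 45% for *Anxa1*, 56.3% for *S100a4*, 64.3% for *Anxa5* and 68% for *Anxa2*. These matches describe the sequence only. In the same assembly *S100a4* stands between *S100a3* and *S100a5* with *S100a6* next, *S100a9* stands beside *S100a8*, and *S100a10* beside *S100a11*. RefSeq also lists 8 pseudogenes named after *Anxa2* and 1 named after *S100a10*. Their sequences were not compared with the probes, so whether they share in the signals of these 2 genes was not tested.

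In the comparison of sorted with unselected cells, 8 of the 11 member probe sets were lower on both GFP+ arrays than on either GFP+/- array. The lower ones were both sets of *Anxa1* and *Anxa5*, set A of *Anxa3*, and the sets of *Anxa2*, *S100a4* and *S100a10*. Over all 8740 probe sets this held for 15.4%. Among the brightest 41%, all 6 member probe sets were lower in this way, beside 20.9% of that share, and 0 were higher, beside 31.2%. One member probe set, set B of *Anxa3*, was higher on both GFP+ arrays, as were 30.4% of all. With limma and Benjamini-Hochberg adjustment over all probe sets, 0 members passed at 0.05 in either direction, as did 0% of all probe sets, and at an unadjusted p under 0.05 there were 6 lower and 1 higher member probe sets, against 4.75% and 9.15% of all. The median log2 difference was -0.57 over the 8 genes and -0.91 over the 5 annexins, against 0.13 over all probe sets. The median of all probe sets was near 0 with quantile normalization (-0.0045) and with equal medians (-0.028), and 8 member probe sets were lower on every array under each of these scalings too, when 21.5% and 23.5% of all were.

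**Figure D1:**
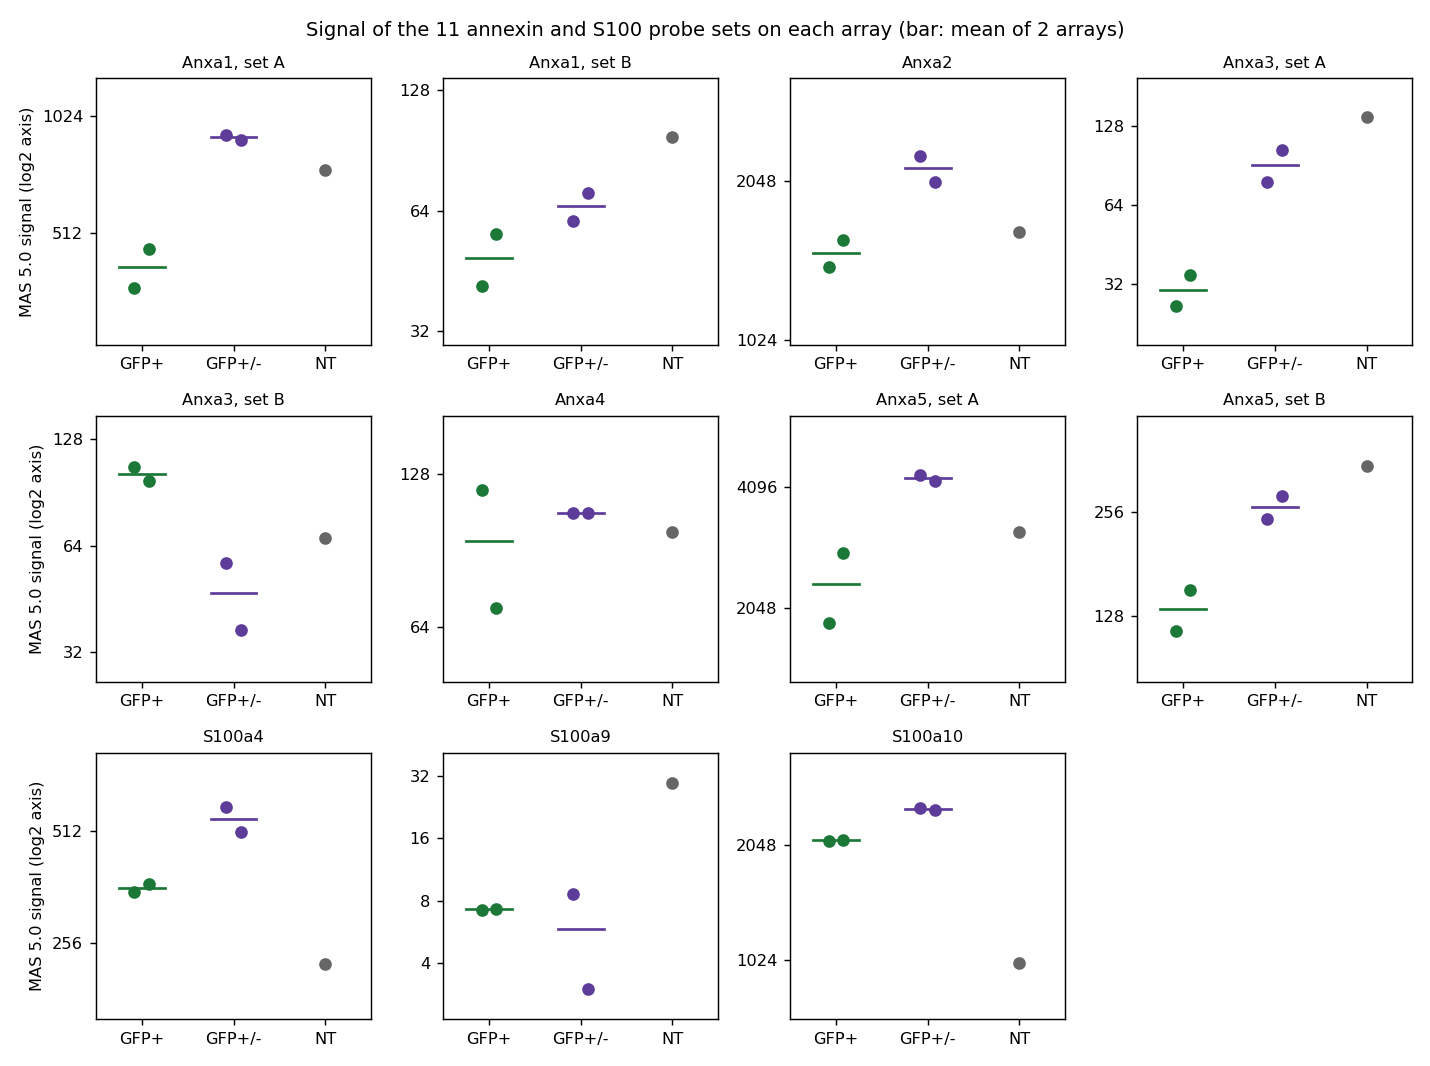
MAS 5.0 signals (log2 axis) of the 11 member probe sets in GFP+, GFP+/- and NT cells, 1 point per array, with a bar at the mean of 2 arrays. For *Anxa1* set A and both *Anxa5* sets the GFP+ points lie below all others, for *S100a4* and *S100a10* the NT point is the lowest, and the 2 *Anxa3* sets run in opposite directions between GFP+ and GFP+/- cells.

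*Anxa1*, a glucocorticoid-regulated protein whose secreted form acts on formyl peptide receptors, had signals of 368 and 465 on the GFP+ arrays, 914 and 889 on the GFP+/- arrays and 741 on the NT array in set A. GFP+ cells were thus the lowest population, with no overlap between the arrays. The averaged GFP+ signal was 2.16-fold below that of GFP+/- cells, and the log2 difference between them was -1.12 (SE 0.19, 95% interval -1.60 to -0.65, adjusted p = 0.145). Tested among the brightest 41% of probe sets only (mean signal of at least 175), it passed (adjusted p = 0.0175), 1 of 6 member probe sets there, beside 1.79% of these 3583 probe sets that were lower and 2.23% that were higher. Set B of *Anxa1* was dim, with 41.4 and 55.8 in GFP+ cells, 60.5 and 70.8 in GFP+/- cells and 97.9 in NT cells. Its GFP+ to GFP+/- difference on the log2 scale had the same sign and did not pass (-0.44, SE 0.39, adjusted p = 0.663).

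*Anxa5*, which binds phosphatidylserine and serves as the usual probe for dying cells, had signals of 1882 and 2807 in GFP+ cells, 4386 and 4232 in GFP+/- cells and 3155 in NT cells with set A. With set B the signals were 116 and 153 in GFP+ cells, 244 and 285 in GFP+/- cells and 347 in NT cells. Both sets placed GFP+ cells lowest. They differed on the NT array, which lay below the GFP+/- arrays with set A and above them with set B. Set against GFP+/- cells, GFP+ cells differed by -0.91 on the log2 scale (SE 0.23, adjusted p = 0.211) with set A and -0.99 (SE 0.25, adjusted p = 0.212) with set B, or 1.84-fold and 1.97-fold lower in averaged signal. Neither passed.

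*Anxa2*, the partner of S100a10 and a cell-surface binding site for plasminogen and tissue plasminogen activator, had signals of 1406 and 1580.0 in GFP+ cells, 2283 and 2040.4 in GFP+/- cells and 1636 in NT cells. The GFP+/- arrays were the brightest, and the NT array lay just above the GFP+ arrays. GFP+ differed from GFP+/- cells by -0.53 on the log2 scale (SE 0.17, adjusted p = 0.274).

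*S100a4*, which binds non-muscle myosin and is a common marker of fibroblasts, had signals of 351 and 370 in GFP+ cells, 593 and 510 in GFP+/- cells and 225 in NT cells. *S100a10* had signals of 2108 and 2115 in GFP+ cells, 2569 and 2547 in GFP+/- cells and 1001 in NT cells. In both genes the order was GFP+/-, GFP+, NT with no overlap, so that the NT array was the lowest, unlike in any of the bright annexin sets. On the log2 scale, GFP+ differed from GFP+/- cells by -0.61 for *S100a4* (SE 0.19, 95% interval -1.08 to -0.14, adjusted p = 0.275) and by -0.28 for *S100a10* (SE 0.15, 95% interval -0.65 to 0.099, adjusted p = 0.497).

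**Figure D2:**
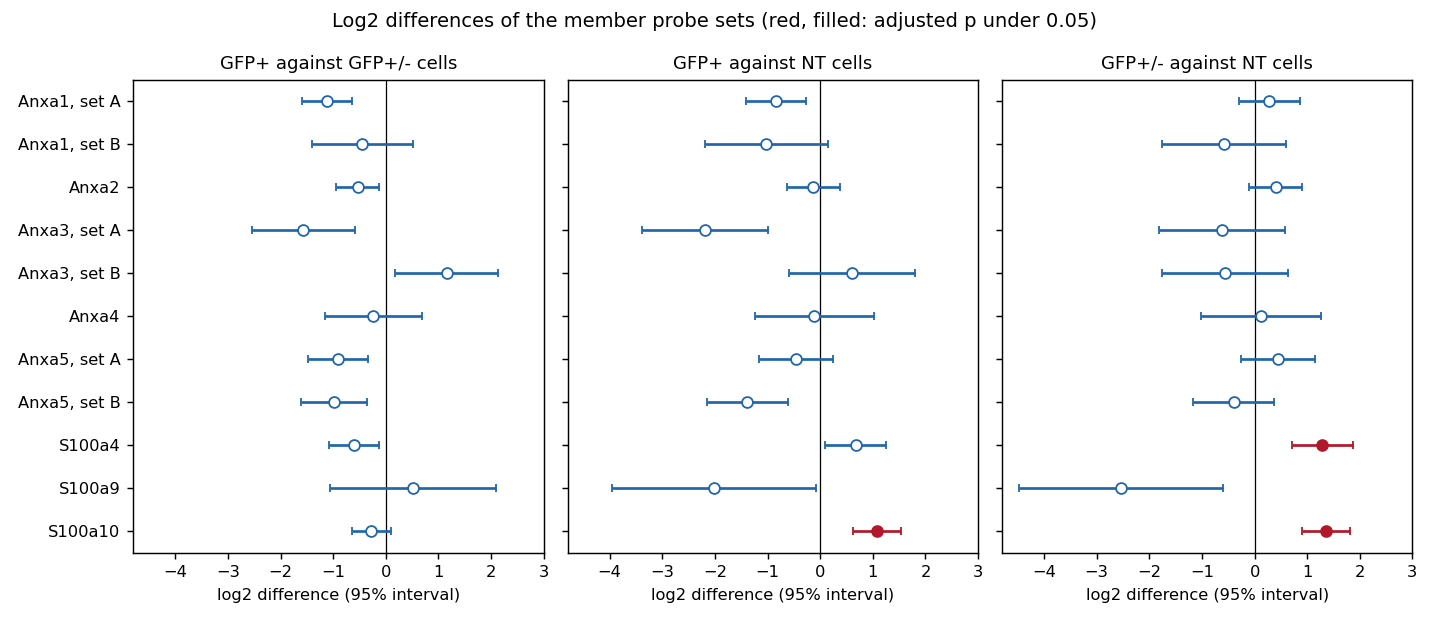
Log2 differences of the 11 member probe sets (rows) in each comparison, with 95% intervals from limma on 5 arrays, where a negative value means a lower signal in the population named first. The filled red points mark adjusted p under 0.05: *S100a10* in GFP+ against NT cells and *S100a4* and *S100a10* in GFP+/- against NT cells.

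Markers of other cells moved between the same populations. The summed signal of 15 measured fibroblast and meningeal markers (of 16 listed) was 24062 and 31318 in GFP+ cells, 56274 and 53479 in GFP+/- cells and 26358 in NT cells, so that the GFP+/- arrays were the highest. On both GFP+ arrays 13 of the 15 genes were lower than on either GFP+/- array, when 15.4% of all probe sets were. Their median GFP+ to GFP+/- difference was -1.37 on the log2 scale, and with limma 0 passed over all probe sets, as did 0% of all. At an unadjusted p under 0.05 there were 12 lower, beside 4.75% of all. Among the brightest 41%, 8 of 13 passed as lower, beside 1.79% of that share. *Bgn*, a matrix proteoglycan, had signals of 667 and 980 in GFP+ cells, 2024 and 2160.3 in GFP+/- cells and 828 in NT cells, an order like that of *Anxa1* and *Anxa5* between the transfected populations. Both GFP+/- arrays lay above the NT array for 10 of the 15 genes and below it for 5, against 35.2% and 44% of all probe sets. *Col3a1* was brightest in NT cells, with 182 and 364 in GFP+ cells, 987 and 995 in GFP+/- cells and 1318 in NT cells. So was the dim *Dcn*, with 9.02 and 9.56 in GFP+ cells, 57.0 and 60.3 in GFP+/- cells and 124 in NT cells. The summed signal of 9 endothelial and mural markers (of 13 listed) was 2279 and 4045 in GFP+ cells, 9264 and 11506 in GFP+/- cells and 1881 in NT cells. This rested on 2 genes of contractile mural cells, *Acta2* and *Tagln*, which summed to 1681 and 3317 in GFP+ cells, 8697 and 10894 in GFP+/- cells and 1234 in NT cells. The other 7 summed to 598 and 728 in GFP+ cells, 567 and 612 in GFP+/- cells and 647 in NT cells. The list's median GFP+ to GFP+/- difference was 0.11 on the log2 scale. On every array 3 of the 9 genes were higher and 2 lower, against 30.4% and 15.4% of all probe sets.

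The 7 epithelial and choroid plexus markers (of 8 listed) summed to 3161 and 5487 in GFP+ cells, 18614 and 17567 in GFP+/- cells and 4016 in NT cells. Most of this was *Ttr*, the thyroid hormone carrier made by the choroid plexus. The 11 neuronal markers (of 15 listed) ran otherwise, with sums of 29821 and 24631 in GFP+ cells, 18888 and 20573 in GFP+/- cells and 38321 in NT cells. Both GFP+ arrays lay above the GFP+/- arrays for 6 of these genes and below them for 0, against 30.4% and 15.4% of all probe sets. They lay above the NT array for 3 and below it for 6, against 41.5% and 35.9% of all probe sets. *Nefh* did not follow the sum, with 1224 and 821 in GFP+ cells, 46.1 and 85.0 in GFP+/- cells and 75.1 in NT cells. The astrocyte sum (12 of 13 genes) lay between 27063 and 31512 on all 5 arrays and the oligodendrocyte sum (8 of 11) between 1548 and 1787. The microglia sum (12 of 15) was 2738 and 1909 in GFP+ cells, 1787 and 1625 in GFP+/- cells and 1563 in NT cells. *Lgals3* weighed most in it, with 1369 and 729 in GFP+ cells, 926 and 933 in GFP+/- cells and 454 in NT cells. Of the 12 genes, 6 were higher and 1 lower on both GFP+ arrays than on either GFP+/- array, against 30.4% and 15.4% of all probe sets. With limma the dim *Itgam* was the only one called, lower in GFP+/- than in NT cells (-3.64, adjusted p = 0.0292), when 5.03% of all were. Within the astrocyte list, 4 genes were higher and 3 lower on both GFP+ arrays than on either GFP+/- array, against 30.4% and 15.4% of all probe sets. *Aldoc* and *Ndrg2* were among the lower ones, and differed by -1.12 and -1.04 log2 units between GFP+ and NT cells. With limma both passed there (adjusted p = 0.0341 and 0.0451), 2 of 12 called lower and 0 higher, against 4.06% and 4.38% of all. *Slc1a3* was among the higher ones, with a GFP+ to NT difference of 0.97 that did not pass (adjusted p = 0.131). No listed marker was below 1 on any array. The part of these cell types in the annexin and S100 differences was not tested, and in such bulk RNA fewer cells of a type and less RNA per cell cannot be told apart.

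**Figure D3:**
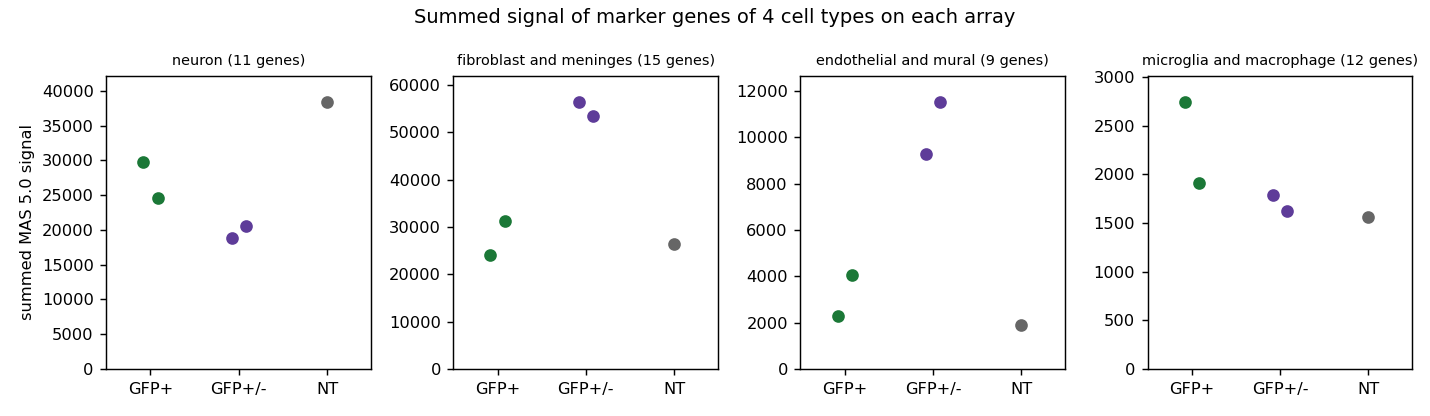
Summed MAS 5.0 signals (linear axis) of the measured markers of neurons, fibroblasts and meninges, endothelial and mural cells, and microglia and macrophages, 1 point per array. The GFP+/- points are the highest for fibroblasts and meninges (56274 and 53479) and for the endothelial and mural list, whose sum rests on *Acta2* and *Tagln*, and the NT point is the highest for neurons (38321).

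Against the NT cells, the calls among the members were higher signals of *S100a10* and *S100a4*. *S100a10* exceeded its NT signal in GFP+ cells by 1.08 on the log2 scale (SE 0.19, 2.11-fold, adjusted p = 0.0287), and in GFP+/- cells by 1.35 (SE 0.19, 2.56-fold, adjusted p = 0.0179). *S100a4* exceeded its NT signal in GFP+/- cells by 1.29 (SE 0.23, 2.45-fold, adjusted p = 0.0304), and its difference between GFP+ and NT cells of 0.68 (SE 0.23) did not pass (adjusted p = 0.145). These were the only member probe sets past the threshold over all probe sets, and both comparisons share the single NT array. In GFP+ against NT cells, 1 of 11 member probe sets was called higher and 0 lower, against 4.38% and 4.06% of all, and in GFP+/- against NT cells 2 were higher and 0 lower, against 4.2% and 5.03% of all. At an unadjusted p under 0.05, limma gave 2 higher and 4 lower member probe sets in GFP+ against NT cells, beside 12.9% and 11.4% of all, and 2 higher and 1 lower in GFP+/- against NT cells, beside 11.4% and 13.5% of all. Both GFP+ arrays lay above the NT array for 3 of the 11 member probe sets and below it for 7, against 41.5% and 35.9% of all, and both GFP+/- arrays lay above it for 6 and below it for 5, against 35.2% and 44% of all.

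The calls were fitted again with each GFP+ or GFP+/- array left out in turn, and most were lost. Calls over all probe sets fell in the same fits, which have fewer arrays to estimate the spread. The losses therefore cannot show whether these 2 genes depend on single arrays. The log2 difference of *S100a10* between GFP+ and NT cells stayed between 1.07 and 1.08. It lost its call even without a GFP+/- array, which is not part of that comparison. Between GFP+/- and NT cells, the log2 difference of *S100a10* stayed between 1.35 and 1.36. That of *S100a4* was 1.18 without GFP+/- array 1 and larger in the other fits.

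Of the annexins, none passed against NT cells over all probe sets with the signals as deposited. Set A of *Anxa1* had a log2 difference of -0.84 between GFP+ and NT cells (SE 0.23, adjusted p = 0.0892) and of 0.28 between GFP+/- and NT cells (SE 0.23, adjusted p = 0.544). The dim set B gave -1.03 (SE 0.47, adjusted p = 0.267) and -0.58 (SE 0.47, adjusted p = 0.540). The 2 sets of *Anxa1* thus differed in sign between GFP+/- and NT cells. For *Anxa5*, GFP+ against NT cells gave -0.46 with set A (SE 0.28, adjusted p = 0.412) and -1.38 with set B (SE 0.31, adjusted p = 0.0545). With equal medians set B passed there (adjusted p = 0.0480). GFP+/- against NT cells gave 0.45 with set A (SE 0.28, adjusted p = 0.413) and -0.39 with set B (SE 0.31, adjusted p = 0.525), so that the direction depended on the probe set. Among the brightest 41% of probe sets, set A of *Anxa1* (adjusted p = 0.0359) and set B of *Anxa5* (adjusted p = 0.0107) passed as lower in GFP+ than in NT cells, 2 of 6 member probe sets when 14.9% of those tested were called lower. *S100a10* passed there too as higher, 1 of 6 when 16.7% were, and in GFP+/- against NT cells 2 of 6 were higher and 0 lower, when 16.4% and 16% were. *Anxa2* differed by -0.13 between GFP+ and NT cells (SE 0.20, 95% interval -0.64 to 0.37, adjusted p = 0.765) and by 0.40 between GFP+/- and NT cells (SE 0.20, adjusted p = 0.305).

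**Figure D4:**
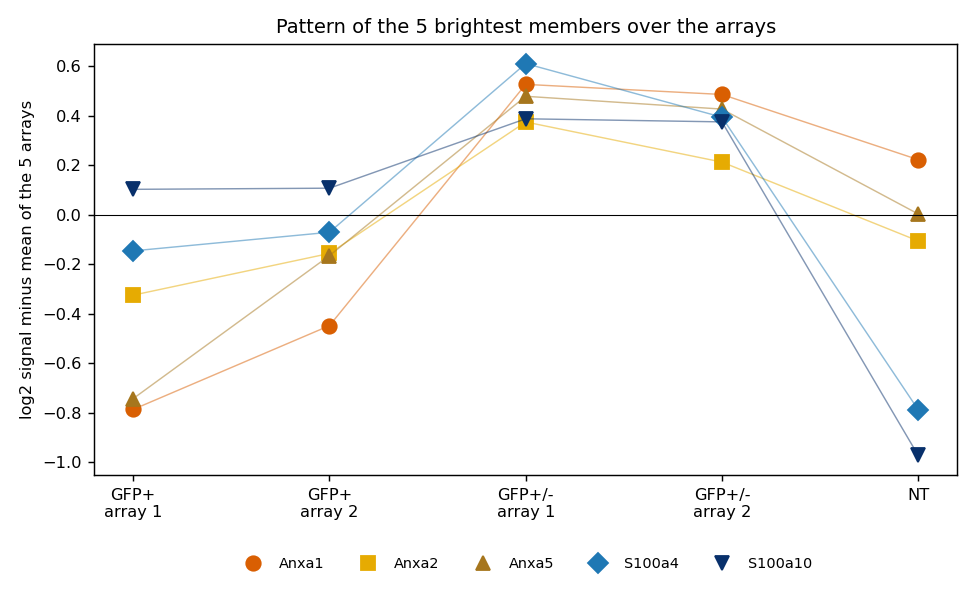
Log2 signal of the 5 members with a gene-level probe set in the brightest 41%, each centred on its own mean over the 5 arrays, and the lines only join points of one gene. All 5 genes are highest on the GFP+/- arrays, and the NT point is the lowest for *S100a4* and *S100a10* while the GFP+ points are the lowest for *Anxa1*, *Anxa2* and *Anxa5*.

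The remaining members were dim. *Anxa3*, known in human from neutrophils, had signals of 26.5 and 34.7 in GFP+ cells, 78.1 and 103 in GFP+/- cells and 138 in NT cells with set A. With set B the signals were 107 and 97.7 in GFP+ cells, 57.0 and 36.9 in GFP+/- cells and 67.4 in NT cells. The 2 sets thus disagreed, with GFP+ cells lowest in set A and highest in set B. GFP+ differed from GFP+/- cells by -1.57 on the log2 scale with set A (SE 0.39, adjusted p = 0.205) and 1.15 with set B (SE 0.40, adjusted p = 0.294). The GFP+ to NT difference was -2.19 with set A (SE 0.48, adjusted p = 0.0513), which passed with quantile normalization (adjusted p = 0.0438) and with equal medians (adjusted p = 0.0469), and 0.60 with set B (SE 0.48, adjusted p = 0.539). No direction is given for *Anxa3*.

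*Anxa4*, an annexin of secretory and epithelial membranes, had signals of 119 and 69.8 in GFP+ cells, 107 and 107 in GFP+/- cells and 98.3 in NT cells, and the GFP+ arrays lay on either side of the others. Its log2 differences were -0.23 between GFP+ and GFP+/- cells (adjusted p = 0.830), -0.11 between GFP+ and NT cells (adjusted p = 0.924) and 0.13 between GFP+/- and NT cells (adjusted p = 0.914). *S100a9*, which with S100a8 forms calprotectin of neutrophils, had signals of 7.26 and 7.34 in GFP+ cells, 8.63 and 3.02 in GFP+/- cells and 29.6 in NT cells. The NT array was the highest for this very dim set, and no difference passed (GFP+ against NT cells -2.02, SE 0.78, adjusted p = 0.189, and GFP+/- against NT cells -2.54, SE 0.78, adjusted p = 0.111).

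The patterns over the 5 arrays were compared by the root mean square difference of log2 signals, each centred on its own mean, as a description over 5 arrays that share their RNA pools. Among the 5 bright members, each read by its brightest set, *Anxa1* and *Anxa5* were the closest pair (0.165), followed by *S100a4* and *S100a10* (0.188) and by *Anxa2* and *Anxa5* (0.221). Of these 5, *Anxa1* and *S100a10* were the farthest apart (0.715), and *Anxa2* stood 0.454 from its binding partner *S100a10*. Set B of *Anxa5*, also in the brightest 41%, was left out of these distances, and unlike set A it was highest on the NT array. Over all probe sets of the brightest 41% with 1 gene symbol, the genes most like *Anxa1* were *Tagln* (0.110), an actin-binding protein of smooth muscle, *Arpc1b* (0.113), a subunit of the actin-branching Arp2/3 complex, and *Gclm* (0.121), of glutathione synthesis. These values are for each gene's closest probe set, and a second bright set lay farther away for *Tagln* (0.394) and for *Arpc1b* (0.403). For *Anxa5* they were *Ucp2* (0.0966), *Fam162a* (0.105) and *Cdk1* (0.107), and for *Anxa2* *Prdx2* (0.0334), *Churc1* (0.0498, with a second bright set at 0.120) and *Adh5* (0.0613). For *S100a4* they were *Ssr4* (0.0699), *Rpl27* (0.0808) and *Idh2* (0.0876), whose other bright sets lay at 0.190 to 0.363, and for *S100a10* the ribosomal genes *Rpl35a* (0.0628) and *Rps10* (0.0641) and *Tpbpa* (0.0665).

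Of 18 other annexins and S100 proteins listed, 6 were measured and 0 passed in any comparison over all probe sets. At an unadjusted p under 0.05 limma gave 2 of the 6, both higher in GFP+/- than in NT cells, where 11.4% of all probe sets were. The median GFP+ to GFP+/- difference of the 6 was -0.23 on the log2 scale. *Anxa6*, the large annexin with a doubled core, had signals of 686 and 617 in GFP+ cells, 731 and 676 in GFP+/- cells and 471 in NT cells, and *S100a1*, a regulator of calcium release channels, had 293 and 378 in GFP+ cells, 445 and 402 in GFP+/- cells and 231 in NT cells. In both the NT array was the lowest, as in *S100a4* and *S100a10*, and no difference passed (*S100a1* in GFP+/- against NT cells 0.87, adjusted p = 0.110). *S100b*, the astrocyte S100 protein, had 556 and 620.0 in GFP+ cells, 493 and 299.9 in GFP+/- cells and 680 in NT cells, with the NT array the highest.

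Partners, ligands and receptors of the 2 families (19 of 32 listed genes measured) held 0 calls between GFP+ and GFP+/- cells. At an unadjusted p under 0.05 limma had 1 lower there, beside 4.75% of all probe sets. Called were 1 lower in GFP+ than in NT cells, when 4.06% of all were, and 1 higher and 1 lower in GFP+/- than in NT cells, when 4.2% and 5.03% were. *Ctsb*, the lysosomal protease cathepsin B, was the lower one in both, with signals of 610 and 526 in GFP+ cells, 693 and 511 in GFP+/- cells and 1386 in NT cells (log2 differences -1.29 for GFP+ and -1.22 for GFP+/- against NT cells, adjusted p = 0.0439 and 0.0469). *Plaur*, the urokinase receptor, was the higher one, with 174 and 113 in GFP+ cells, 204 and 327 in GFP+/- cells and 51.6 in NT cells (GFP+/- against NT cells 2.32, adjusted p = 0.0358). *Plat*, the tissue plasminogen activator that annexin A2 binds, had 297 and 350.3 in GFP+ cells, 292 and 197 in GFP+/- cells and 519 in NT cells, and did not pass.

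Of 35 other EF-hand calcium-binding proteins, 22 were measured. None passed between GFP+ and GFP+/- cells. Before adjustment, limma had 1 higher and 1 lower there with p under 0.05, beside 9.15% and 4.75% of all probe sets. In GFP+ against NT cells 1 was called higher and 1 lower, when 4.38% and 4.06% of all were. In GFP+/- against NT cells 2 were called lower, when 5.03% of all were. *Capns1*, the small calpain subunit, exceeded its NT signal in GFP+ cells by 1.51 (adjusted p = 0.0335). *Rcn2*, a calcium-binding protein of the endoplasmic reticulum, was lower than in NT cells in both GFP+ (-1.39, adjusted p = 0.0401) and GFP+/- cells (-1.59, adjusted p = 0.0277), and *Vsnl1*, a neuronal calcium sensor, was lower in GFP+/- than in NT cells (-3.40, adjusted p = 0.0364). Of 13 glucocorticoid-induced genes, a group to which *Anxa1* is often counted, 6 were measured. Between GFP+ and GFP+/- cells their median log2 difference was 0.59. On every array 4 were higher and 0 lower, when 30.4% and 15.4% of all probe sets were. With limma 0 passed, and 3 were higher before adjustment with p under 0.05, beside 9.15% of all. Both *Anxa1* sets were lower on every array, and a part of glucocorticoids in this was not tested. Against NT cells, *Nfkbia*, the inhibitor of NF-kappaB, was the only one of the 6 that passed. It had signals of 1171 and 1021 in GFP+ cells, 662 and 753 in GFP+/- cells and 183 in NT cells, and was higher than in NT cells by 2.58 in GFP+ cells (adjusted p = 0.00808) and by 1.94 in GFP+/- cells (adjusted p = 0.0136).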

How the data were processed

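The authors had summarised each probe set of the rat genome arrays with MAS 5.0, and the deposited values are signals, a linear intensity. Per the methods each array was scaled by one factor to a common mean. The deposited intensity values had a mean of 501 on every array after 2% was trimmed from either end, which is not the target mean that the methods state, so the absolute scale is unsettled, while ratios between arrays do not depend on it. An array has no read depth, and precision is set by how many arrays there are.

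The table held 8799 probe sets, and 8740 were analysed after removal of 59 control sets. In the platform annotation 7006 of them had 1 gene symbol, 308 several and 1426 none. Signals under 1 were set to 1, and log2 values were fitted in R 4.3.3 with limma 3.58.1 (all 5 arrays, one mean per population, intensity trend, no covariate, no filter), with Benjamini-Hochberg adjustment over the 8740 probe sets and a threshold of 0.05. With 1 NT array, the spread of NT cells was taken to equal that of the replicated populations. An exact permutation test of 2 against 2 arrays cannot go below p = 0.333 (two-sided). Fits were tested on simulated data. Python 3.11.15 was used for the summaries and drawings.

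The members and gene lists were chosen with earlier results of these data known. Named were all member probe sets, up to 4 genes of each list (those past the threshold, then the largest differences between GFP+ and GFP+/- cells among bright sets), and the 3 genes most like each bright member. Alternatives were quantile normalization, equal medians, 16 added to each signal, the brightest 41% of probe sets only, no intensity trend, ratios of averaged signals, only the GFP+ and GFP+/- arrays, a replicate block, each array left out, and averaging all probe sets of a gene. Gene names and promoters came from RefSeq (GRCr8), and no coordinates of the probe sets were used.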

Additional observations from a re-analysis of the deposited data

How the results depend on the processing

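Of 304 member values tested again under the alternatives, 281 kept their direction and side of the threshold, 13 lost and 7 gained significance, and 3 reversed, none of which had passed: *Anxa4* without GFP+ array 2 (0.15 for GFP+ against GFP+/- and 0.28 for GFP+ against NT cells, and -0.62 and -0.49 without GFP+ array 1) and *S100a9* without GFP+/- array 2 (-0.24 for GFP+ against GFP+/- cells, and 1.28 without GFP+/- array 1). The cause was not tested. All 13 losses were of the *S100a10* and *S100a4* calls against NT cells. Most of the 281 values that kept their side of the threshold had not passed at the start. The 33 ratios of averaged signals, which carry no test, kept their sign. For GFP+ against GFP+/- cells, the median over the 8 genes was -0.73 with equal medians, -0.41 with all probe sets of a gene averaged and -0.67 to -0.48 with one array left out. Member probe sets called were 1 and all called 144 among the brightest 41%, where fewer probe sets were tested. Without one array, 1 to 2 member probe sets were higher on every array, when 43.1% to 47.2% of all were. In the same fits 8 to 9 were lower, when 25% to 30.3% of all were. The replicate block called 2 of all probe sets and 0 members. The replicate numbers pair nothing by the labels, the correlation of same-numbered arrays was 0.0632 (0.197 for the brightest 41%), and the block changed no other call.

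For GFP+ against NT cells, the median was -0.13 among the brightest 41%, -0.46 with all probe sets of a gene averaged and -0.48 to -0.30 with one array left out. Member calls were 1 as reported, 2 with quantile normalization, 3 with equal medians, 3 among the brightest 41%, and 0 without a trend. All calls were 738 as reported, 775 with quantile normalization, 712 with equal medians, 1133 among the brightest 41% and 2 without a trend. For GFP+/- against NT cells, the median was 0.41 with quantile normalization, 0.46 with equal medians, 0.45 among the brightest 41%, 0.077 with all probe sets of a gene averaged and 0.29 to 0.39 with one array left out. Member calls were 0 without a trend and 0 to 1 with one array left out, and all calls were 807 as reported, 2 without a trend and 1 to 333 with one array left out. *S100a9* in GFP+/- against NT cells passed once 16 was added to the signals (-1.08, adjusted p = 0.0413).

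With 2 arrays or 1 for each population, intervals of dim probe sets are wide, and the signals of *Anxa3*, *Anxa4*, *S100a9* and set B of *Anxa1* lie below the brightest 41%, where no detection call was used. Without a trend, *S100a10* had adjusted p = 0.140 in GFP+ against NT cells and 0.106 in GFP+/- against NT cells, and *S100a4* 0.116 in GFP+/- against NT cells.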

Other observations

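Among 6 measured neutrophil markers (of 13 listed), *Lcn2* and *Mmp9* were called higher in both transfected populations than in NT cells, while *S100a9* was not. Of all probe sets, 4.38% were called higher in GFP+ and 4.2% in GFP+/- than in NT cells. Both GFP+ arrays lay above the NT array for 4 of the 6 and below it for 1, against 41.5% and 35.9% of all. Both GFP+/- arrays lay above it for 2 and below it for 2, against 35.2% and 44% of all. *Lcn2*, the secreted iron-carrier protein lipocalin 2, had signals of 3507 and 3557 in GFP+ cells, 3746 and 3703 in GFP+/- cells and 14.0 in NT cells, with log2 differences against NT cells of 7.98 for GFP+ (adjusted p = 0.000197) and 8.06 for GFP+/- cells (adjusted p = 0.000186). *Mmp9*, a matrix metalloprotease, was above its NT signal of 46.2 on every other array, with log2 differences against NT cells of 2.83 (adjusted p = 0.0435) for GFP+ and 4.26 (adjusted p = 0.0173) for GFP+/- cells. *S100a8*, the partner of *S100a9*, had signals of 11.7 and 29.3 in GFP+ cells, 64.2 and 3.83 in GFP+/- cells and 7.49 in NT cells, and the arrays overlapped.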
